A study of Arabidopsis thaliana with 12 samples.

Results

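The genes described here were close to silent in wild-type Arabidopsis thaliana seedlings at both water potentials tested, and had reads in every library of stressed seedlings that overexpress HIN1. Of the 33602 genes in the deposited tables, 299 were chosen by their measured CPM, the reads of a gene per 1 M gene reads of its library. The mean had to be under 0.2 CPM in wild-type control and in wild-type stress libraries, each of the 3 HIN1 stress libraries had to reach 0.1 CPM, and the HIN1 stress mean had to be at least 3 times the wild-type stress mean. AT2G13810, AT2G29100 and the stretch from AT1G13470 to AT1G13550 were set aside by name, which took 2 genes off a list of 301. CPM counts the reads of a gene whatever its length, and 0.1 CPM was 5.8 to 6.86 reads in these libraries. Of the 11321 genes under the ceiling in both wild-type groups, 5560 had at least 1 read in some library, and the set holds 5.38% of these.

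Genes with almost no transcript in a seedling are of several kinds. Some work only in pollen, seed or endosperm, some are switched on by a pathogen or by a nutrient signal, and others are pseudogenes and repeats that plants keep silent with DNA methylation and repressive chromatin. Genes of the first kinds are often held off by Polycomb proteins, which place a repressive mark on histones, and lie among active genes, while silenced repeats are densest around the centromeres.

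Poly-A RNA of whole Col-0 seedlings was sequenced with a stranded kit. Seedlings of the wild type, here WT, and of a stable line with the transgene 35S:HIN1, here HIN1, were grown for 7 days, moved to fresh agar at -0.25 MPa (control) or to agar with polyethylene glycol at -0.7 MPa (stress), and collected 96 h later. Each of the 4 groups has 3 libraries. The 35S promoter of a plant virus is known to be active in most tissues, and in which cells of this line it drove HIN1 was not measured. HIN1 is AT3G11290 and encodes a protein that binds the phosphatase HAI1 of the drought hormone pathway. Replicates were separate experiments per the labels, the WT libraries also serve another series, and 1 line stands for the HIN1 genotype, so p-values reflect how far experiments on that line spread. HIN1 itself stood at 23.23, 21.55 and 21.49 CPM in WT control, 24.23, 24.81 and 22.88 CPM in WT stress, 253.87, 306.35 and 253.67 CPM in HIN1 control, and 321.12, 355.78 and 385.79 CPM in HIN1 stress, so each library matched its genotype label. Leaf and root marker genes were present in all libraries, as the label of whole seedlings says.

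Libraries held 58.0 M to 68.56 M gene reads. The number of genes with at least 1 read was 25073 to 25262 in HIN1 stress and 24250 to 24699 elsewhere. Chloroplast reads took their highest share in library 3 of every group, with 0.408% in WT and 0.75% in HIN1 at control, and 0.589% in WT and 0.479% in HIN1 under stress. The highest HIN1 stress library was library 1 for 68 members, library 2 for 98 and library 3 for 133. Whether the chloroplast share has a part in that order was not tested.

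Summed over the 299 members, the level was 10.3, 10.9 and 12.7 CPM in WT control and 15.9, 13.0 and 15.4 CPM in WT stress. It was 65.6, 58.3 and 59.9 CPM in HIN1 control and 169.1, 181.3 and 204.5 CPM in HIN1 stress. The 4 groups did not overlap, and the rule fixed the low and the high ends of that order, but not the place of HIN1 control. The near-silent genes outside the set summed to 133.3 to 139.7 CPM in WT control, 145.3 to 161.4 CPM in WT stress, 170.8 to 185.8 CPM in HIN1 control and 200.6 to 227.5 CPM in HIN1 stress. The median member had a mean of 0.0159 CPM in WT control, 0.0322 CPM in WT stress, 0.0652 CPM in HIN1 control and 0.35 CPM in HIN1 stress. No read was found for 109 members in WT control, 51 in WT stress and 49 in HIN1 control. Whole seedlings were sampled, so a low level in many cells and a high level in few cells cannot be told apart.

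**Figure D1:**
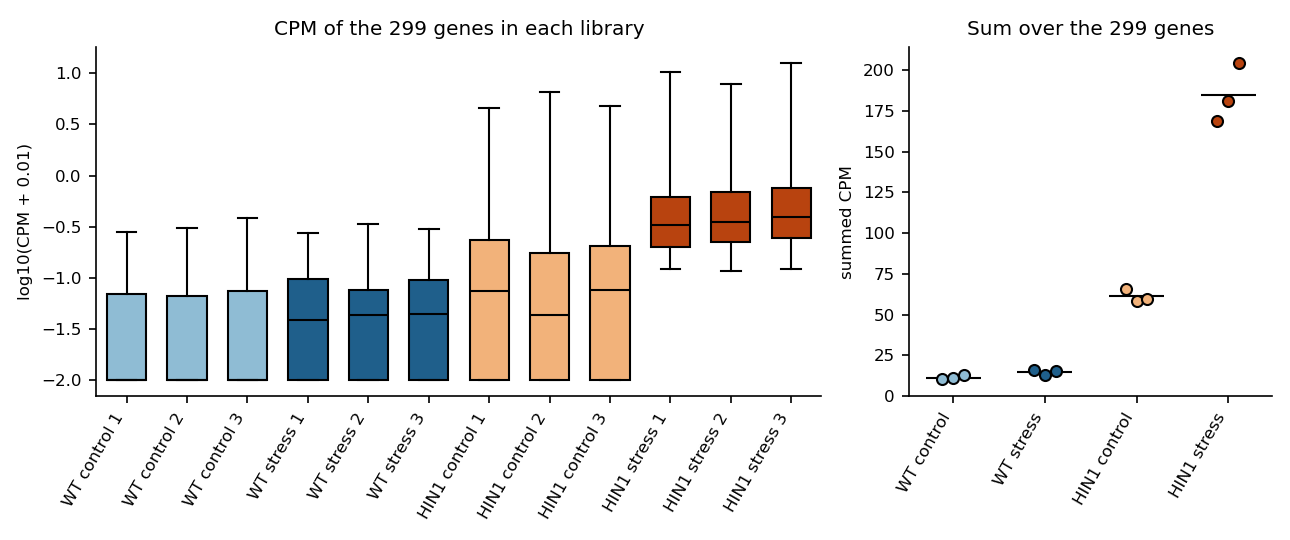
Left, log10(CPM + 0.01) of the 299 members in each of the 12 libraries, with the quartiles as boxes, the median as a line and the whole range as whiskers. Right, CPM summed over the members per library (points) with the group mean (line). The HIN1 stress libraries stand highest, where the rule put them, and the HIN1 control libraries lie between them and the WT libraries.

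The rule run with other groups in its places gave fewer genes. With HIN1 control in the place of HIN1 stress it found 127 genes. With both HIN1 groups near-silent it found 13 genes for WT stress and 17 for WT control. At the edges of the rule, AT4G02650 and the lipase gene GLIP4 lay just inside the ceiling, with higher WT means that print as 0.2 and 0.199 CPM and are under the ceiling, and AT1G48710 just outside it at 0.201 CPM. The lowest HIN1 stress library was at 0.108 CPM in AT1G61320, just inside, and at 0.0958 CPM in AT3G06560, AT3G09915 and AT5G44360, just outside. The ratio of HIN1 stress to WT stress was 3.01 in AT3G27416, just inside, and 2.98 in AT2G42480 and 2.95 in the Polycomb gene MEA, just outside.

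HIN1 control was the only group that the rule did not use, and it shows the members' level in the line without the stress. The levels differed between members. The HIN1 control mean reached 0.1 CPM in 120 of the 299 (40.1%), against 10% of the near-silent genes outside the set and 81.9% of all genes with a read. The HIN1 control libraries all lay above the WT control libraries in 107 members (35.8%), against 4.62% of the near-silent genes outside the set and 12% of all 27841 genes with a read. Near-silent genes outside the set needed only 1 read in some library, while members had reads in every HIN1 stress library. The rule thus favours members in both comparisons with these genes, and how large its part is was not tested. At the other end, the HIN1 control mean was under 0.1 of the HIN1 stress mean in 122 members, and 28 members were as high in HIN1 control as in HIN1 stress or higher. Pseudogenes made up 5.83% of the 120 members that reached 0.1 CPM in HIN1 control and 24.0% of the 179 that did not.

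**Figure D2:**
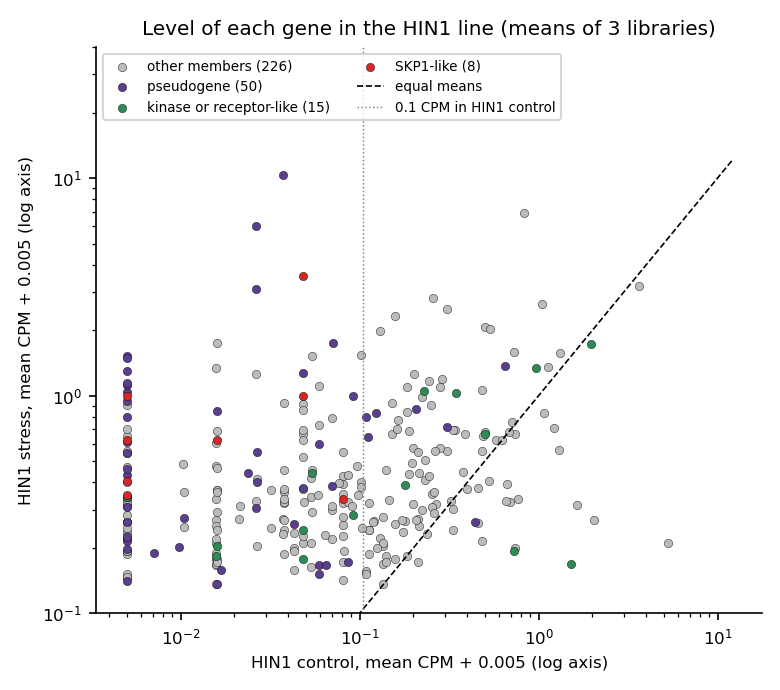
Mean CPM in HIN1 control (horizontal, log axis) against mean CPM in HIN1 stress (vertical, log axis) for each of the 299 members, with 0.005 CPM added for the log axes. Members at the left edge have no read in HIN1 control, and the 28 members on or below the diagonal were at least as high in HIN1 control.

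In edgeR's quasi-likelihood test across all genes, with Benjamini-Hochberg adjustment, 45 members were called higher in HIN1 control than in WT control and none was called lower. That is 18.9% of the 238 members with enough reads for the test, against a background of 2.76% of 22924 genes tested (2.19% higher). The other 61 members were too low to be tested, and most of those tested passed through their HIN1 stress reads. The rule also capped WT control, so only the HIN1 side was free to vary. The median log2 fold change was 1.76, or 1.63 over the 193 members with a value when genes without reads in a group are set at their bound, against -0.0176 over all genes tested. Without WT control library 1, 28 members were called, against a background of 1.5%, and without HIN1 control library 1 also 28, against 1.6%. With only these groups in the fit, 69 members passed the filter on low counts and 24 were called, against a background of 1.34%. DESeq2 called 71 members, 70 higher and 1 lower, against a background of 6.73%. The authors' deposited table called 40 of 161 members with an adjusted p-value, all higher, against 4.64% of its genes.

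The member with the highest HIN1 control level was AT1G63560, which has no entry in the reference used here. It had 4.58, 6.51 and 4.83 CPM in HIN1 control and 0.224, 0.201 and 0.19 CPM in HIN1 stress. In WT it had 0.03 CPM in 1 control library and no read in the other 5 libraries. HIN1 control stood above every other group, and HIN1 stress above WT. The ratio of HIN1 control to WT control was 533 with a 95% counting interval of 138 to 4140, which rests on 2 WT reads (adjusted p = 1.46e-05). Its neighbour by number, AT1G63550, a receptor-like kinase relative, had 0.836, 0.673 and 0.656 CPM in HIN1 control and 0.256, 0.185 and 0.127 CPM in HIN1 stress, and no WT read.

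AT1G29100, annotated with the heavy metal transport and detoxification proteins that carry metal ions inside the cell, was high in both HIN1 groups. It had 3.75, 2.71 and 4.48 CPM in HIN1 control and 3.34, 3.26 and 2.99 CPM in HIN1 stress, against 0.135, 0.082 and 0.098 CPM in WT control and 0.029, 0 and 0.103 CPM in WT stress. The HIN1 libraries overlapped across the stress and lay far above all WT libraries, with a log2 fold change in control of 5.03 ± 0.417 (SE, n = 3 per group, adjusted p = 6.58e-05). PCR1, a plasma membrane protein of the plant cadmium resistance family, was high in HIN1 control only, at 0.949, 3.22 and 1.92 CPM, against 0.303, 0.17 and 0.316 CPM in HIN1 stress. Its WT libraries lay between 0 and 0.066 CPM, and the log2 fold change in control was 6.09 ± 0.724 (SE, adjusted p = 0.000787). Within the HIN1 line the PCR1 libraries did not overlap between the treatments.

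Of the 6 members highest in HIN1 control, 3 encode receptors by their annotation. The wall-associated kinase WAK3, a receptor that spans the membrane into the cell wall, had 2.18, 2.3 and 1.38 CPM in HIN1 control and 1.58, 1.81 and 1.8 CPM in HIN1 stress. Its highest WT value was 0.12 CPM, and the log2 fold change in control was 4.62 ± 0.398 (SE, adjusted p = 8.52e-05). AT4G11340, an immune receptor gene of the TIR-NBS-LRR class, had 2.03, 1.28 and 1.63 CPM in HIN1 control, 0.179, 0.131 and 0.098 CPM in WT control and 0.16, 0.324 and 0.443 CPM in HIN1 stress (log2 fold change in control 3.5 ± 0.445, SE, adjusted p = 0.00117). The leucine-rich repeat kinase gene AT2G14440 had 1.69, 1.31 and 1.53 CPM in HIN1 control and 0.24, 0.123 and 0.127 CPM in HIN1 stress (3.07 ± 0.443, SE, adjusted p = 0.00279). Both were thus lower under stress than in control within the HIN1 line, with no overlap. The cysteine-rich receptor kinase gene CRK7 (4.37 ± 0.639, SE, adjusted p = 0.00302) and WRKY59, a member of a transcription factor family known for its role in defence (3.94 ± 0.66, SE, adjusted p = 0.00713), were also called.

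Summed over the 15 kinase or receptor-like members, the level was 7.24, 6.81 and 5.79 CPM in HIN1 control and 7.94, 8.07 and 9.13 CPM in HIN1 stress, against 0.64 to 1.16 CPM in the 6 WT libraries. Of these 15 members 8 reached 0.1 CPM in HIN1 control and 5 were called there, against 120 and 45 of all 299 members, and whether the class differs from the set was not tested.

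Further called members were picked by annotation after their values were seen. The phosphate transporter gene PHT1;9 had 1.05, 1.49 and 1.41 CPM in HIN1 control and 1.21, 1.78 and 1.72 CPM in HIN1 stress, against 0.12, 0.164 and 0.278 CPM in WT control (log2 fold change 2.75 ± 0.335, SE, adjusted p = 0.000905). The ammonium transporter gene AMT1;5 had 0.981, 0.394 and 0.755 CPM in HIN1 control, 0.575, 0.648 and 1.04 CPM in HIN1 stress and no WT read, so it was at least 44.7-fold higher in HIN1 control, with the floor set at 3 reads over the WT group. In both genes the HIN1 libraries of the 2 treatments overlapped. CKX2, a cytokinin oxidase that breaks down the hormone cytokinin, had 0.884, 1.44 and 1.05 CPM in HIN1 control and 1.05, 1.27 and 1.74 CPM in HIN1 stress (3.83 ± 0.449, SE, adjusted p = 0.000711). CYP710A3, of a cytochrome P450 family that makes the sterol stigmasterol, had 0.965, 0.935 and 1.31 CPM in HIN1 control, 0.862, 0.756 and 0.87 CPM in HIN1 stress and no read in any WT library, and was at least 67.5-fold higher on the same floor. Not all nutrient transporters behaved so: the nitrate transporter gene NRT2.2 had 0.064, 0.033 and 0.066 CPM in HIN1 control and 1.41, 0.895 and 1.01 CPM in HIN1 stress.

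Between the HIN1 groups, 146 members were called higher under stress and 8 lower, which is given as a description because the rule chose the members on HIN1 stress. The background was 27.1% of the genes tested, 14.7% higher and 12.5% lower, and the median log2 fold change of the members was 2.30 (2.29 with bounds) against 0.0072 over all genes. Every HIN1 stress library lay above every HIN1 control library in 220 members (73.6%), against 20.9% of all genes with a read. The 8 lower members were AT1G63560 (log2 fold change -4.69), AT2G14440 (-3.21), PCR1 (-2.94), AT4G11340 (-2.41), AT1G63550 (-1.93), AT5G46960 (-1.93), GLIP4 (-1.22) and MMD1 (-1.19). MMD1 is a regulator of male meiosis, GLIP4 a lipase, and AT5G46960 is annotated as an inhibitor of pectin methylesterase or invertase. All of these 8 were also called higher in HIN1 control than in WT control. The rule nearly fixes this, because it capped WT control and set a floor on HIN1 stress, so nothing is read from it.

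Between the genotypes under stress, 160 members were called, all higher, where the background was 3.42% of the genes tested (3.23% higher) and the median log2 fold change was 3.54, also with bounds, against -0.0055 over all genes. The rule used this contrast, so nothing is read from these values. The authors' deposited table called 176 of 298 members, all higher, against 4.5% of its genes. The WT response to the stress, capped by the rule on both sides, gave 15 members higher and 11 lower, against a background of 31.6% (14.9% higher and 16.7% lower). DESeq2 called 44, against 34.7%, and 0 of 8 members were called with only the WT groups in the fit, against 24.5%. The authors' deposited table gave 6 higher and 1 lower of 149, against 26.8%. Each of the 4 groups enters more than 1 of these comparisons.

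Counted in reads, the highest members under stress in the HIN1 line were AT3G42383, AT4G28420, AT3G42386, MEO, AT1G29100, AT5G33431, AT2G28680, PAB1, CYP81G1 and AT1G62240. Per kb of gene length the order changes: MEO had 7.86 CPM per kb, AT1G29100 had 7.5, AT4G28420 had 4.19, AT5G33431 had 2.68 and AT3G42383 had 2.63. AT3G42383 is a pseudogene of chromosome 3 at chr3:14504127-14508029 on the minus strand. It had 10.3, 7.81 and 12.6 CPM in HIN1 stress, 0.064, 0 and 0.033 CPM in HIN1 control, 0.233, 0.099 and 0.121 CPM in WT stress and no read in WT control. Its neighbour AT3G42386, a pseudogene on the other strand at chr3:14509932-14514632, had 4.63, 5.91 and 7.43 CPM in HIN1 stress against 0.121 CPM at most elsewhere. Neither exceeded 0.233 CPM in any of the other 9 libraries. The ratio of HIN1 stress to HIN1 control was 317 in AT3G42383.

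AT4G28420, annotated as a tyrosine transaminase, an enzyme that takes the amino group off tyrosine, stood higher from group to group. It had 0.015, 0 and 0.033 CPM in WT control, 0.058, 0.066 and 0.207 CPM in WT stress, 1.25, 0.558 and 0.673 CPM in HIN1 control and 5.69, 6.75 and 8.26 CPM in HIN1 stress. None of the 4 groups overlapped. The step between the genotypes in control was called, with a ratio of 52.1, a 95% counting interval of 17.6 to 257 and an adjusted p of 0.000882, and HIN1 stress was 8.32 times HIN1 control. PAB1, a poly(A) binding protein, of the family that coats the tail of messenger RNA, had 1.09, 1.21 and 0.821 CPM in HIN1 control and 3.02, 2.47 and 2.37 CPM in HIN1 stress, with 0.065 CPM at most in WT (log2 fold change in control 5.43 ± 0.648, SE, adjusted p = 0.000797). AT2G28680, a cupin, of the fold that seed storage globulins share, had 2.48, 3.27 and 2.69 CPM in HIN1 stress and 0.161, 0.197 and 0.394 CPM in HIN1 control. CYP81G1, a cytochrome P450, had 2.32, 2.42 and 2.77 CPM in HIN1 stress and 0.289, 0.361 and 0.263 CPM in HIN1 control, and its HIN1 control level was called (1.94 ± 0.414, SE, adjusted p = 0.0295).

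**Figure D3:**
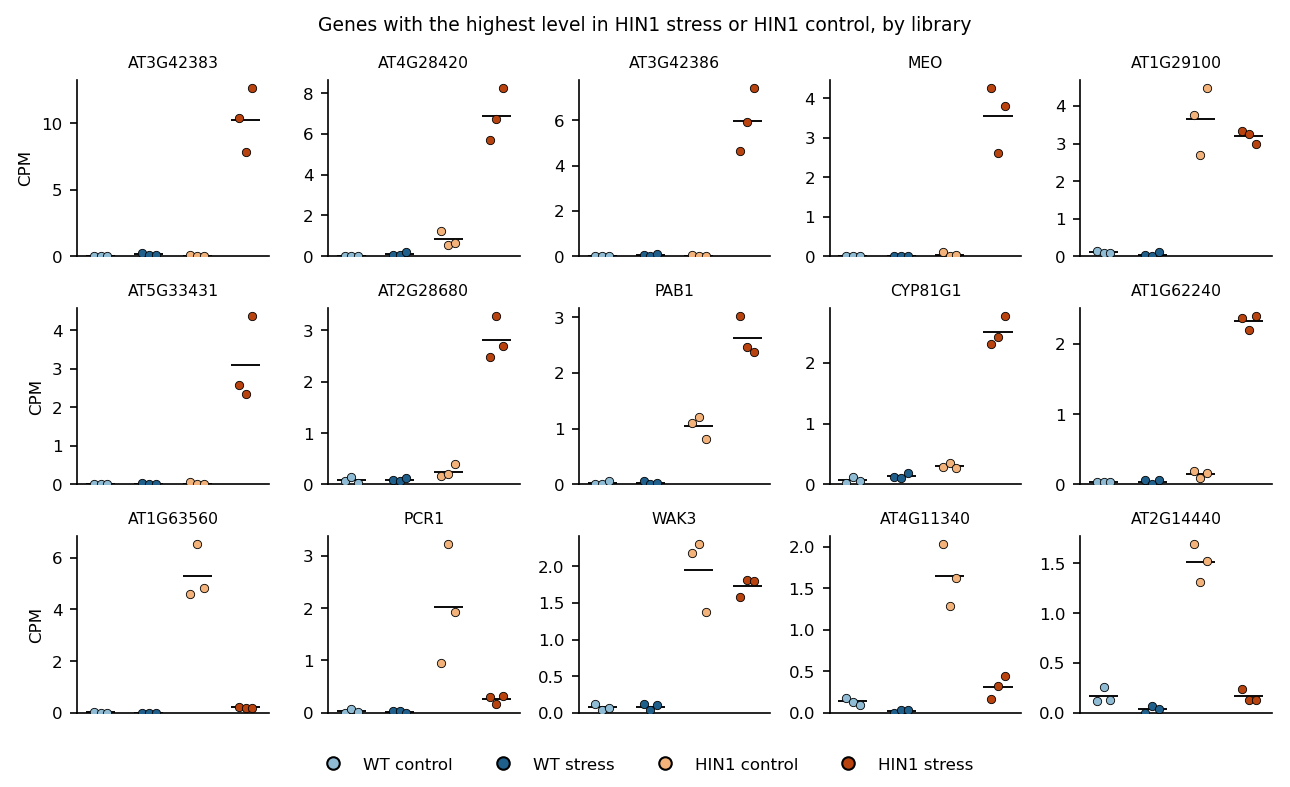
CPM per library (points) with the group mean (line) of the 10 members highest in HIN1 stress and of further members highest in HIN1 control, each panel on its own linear axis from 0. AT3G42383, AT3G42386, MEO and AT5G33431 are near 0 in all groups but HIN1 stress, whereas AT1G29100 and WAK3 are high in both HIN1 groups and AT1G63560 is highest in HIN1 control.

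SKP1-like genes had the highest share of members among the classes in the plot of class shares, and were looked at after the values were seen. SKP1 proteins are the adaptors of SCF ubiquitin ligases, which hold an F-box protein, the part that picks the target, onto the cullin scaffold. Of 12 near-silent SKP1-like genes with a read, 8 are in the set (66.7%, against 5.38% of all near-silent genes with a read). They are MEO, SK7, SK8, SK10, SK11, SK13, SK14 and SK16. Their summed level was 0.06, 0.07 and 0.09 CPM in WT control, 0.6, 0.39 and 0.36 CPM in WT stress, 0.23, 0.13 and 0.16 CPM in HIN1 control and 7.28, 7.03 and 9.31 CPM in HIN1 stress. WT stress thus lay above WT control and above HIN1 control without overlap, at a level far below HIN1 stress.

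SK8, SK7, SK9 and SK10 lie in a row on chromosome 3, and the 3 members among them span chr3:7693481-7700446 on the minus strand. SK9 is not a member because its WT stress mean was 0.276 CPM, over the ceiling, and it had a mean of 0.0209 CPM in WT control, 0.0273 CPM in HIN1 control and 1.62 CPM in HIN1 stress. The copies are alike: 68 of 378 aligned coding positions differ between the 4. The lines below show the same 90 coding bases of each copy from RefSeq (TAIR10.1), 5′ to 3′. Likeness decides how reads can be split between copies. The window is the gap-free stretch with the most differences, so the copies are more alike over the whole alignment. Capitals mark bases that differ from the single most common base of the 4 at that position, and all 4 copies are in capitals where no single base is most common. The copies differ at 24 of the 90 positions.
SK8 (chr3:7693580-7693669, minus strand): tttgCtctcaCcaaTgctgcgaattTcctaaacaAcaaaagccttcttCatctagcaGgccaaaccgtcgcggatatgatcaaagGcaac
SK7 (chr3:7695508-7695597, minus strand): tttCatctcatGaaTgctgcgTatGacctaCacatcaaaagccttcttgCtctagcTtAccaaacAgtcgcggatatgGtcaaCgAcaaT
SK9 (chr3:7697188-7697277, minus strand): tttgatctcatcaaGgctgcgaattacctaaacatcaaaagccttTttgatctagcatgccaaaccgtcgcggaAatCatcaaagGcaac
SK10 (chr3:7699876-7699965, minus strand): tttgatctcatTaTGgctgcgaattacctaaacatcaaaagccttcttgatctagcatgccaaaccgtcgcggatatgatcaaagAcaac

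The differences are spread along the window, and few reads of the row were shared between sites. The deposited share of reads that map to several sites was 0% in SK7 and SK10 and 0.763% in SK8, while it was 30.5% in SK11 of chromosome 4, so the level of SK11 is uncertain. SK7, SK8 and SK10 were 87.8% to 91.1% identical, and SK11 was 76.0% to 80.9% identical to them. SK7 had 0.719, 0.88 and 1.39 CPM in HIN1 stress, SK8 had 0.359, 0.602 and 0.91 CPM, and SK10 had 0.399, 0.34 and 0.459 CPM. None of these 3 genes had a read in HIN1 control, and in WT stress SK10 reached 0.146 CPM in library 1.

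MEO (MEIDOS), the highest of the family, is at chr2:8699511-8700186 on the minus strand. It had 4.26, 2.61 and 3.81 CPM in HIN1 stress, 0.096, 0 and 0.033 CPM in HIN1 control and no read in the 6 WT libraries. That is at least 223-fold above WT stress, with the floor at 3 reads over the group, and 82.6 times HIN1 control. SK14 and SK16, side by side at chr2:961308-964901, had 0.24, 0.401 and 0.395 CPM and 0.447, 0.71 and 0.696 CPM in HIN1 stress. SK14 had 0.058, 0.066 and 0.069 CPM in WT stress, and SK16 had no WT read. SK13 was the weakest contrast of the family, with 0.192, 0.262 and 0.538 CPM in HIN1 stress against 0.175, 0.066 and 0.034 CPM in WT stress. No SKP1-like member reached a mean of 0.1 CPM in HIN1 control and none was called there.

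**Figure D4:**
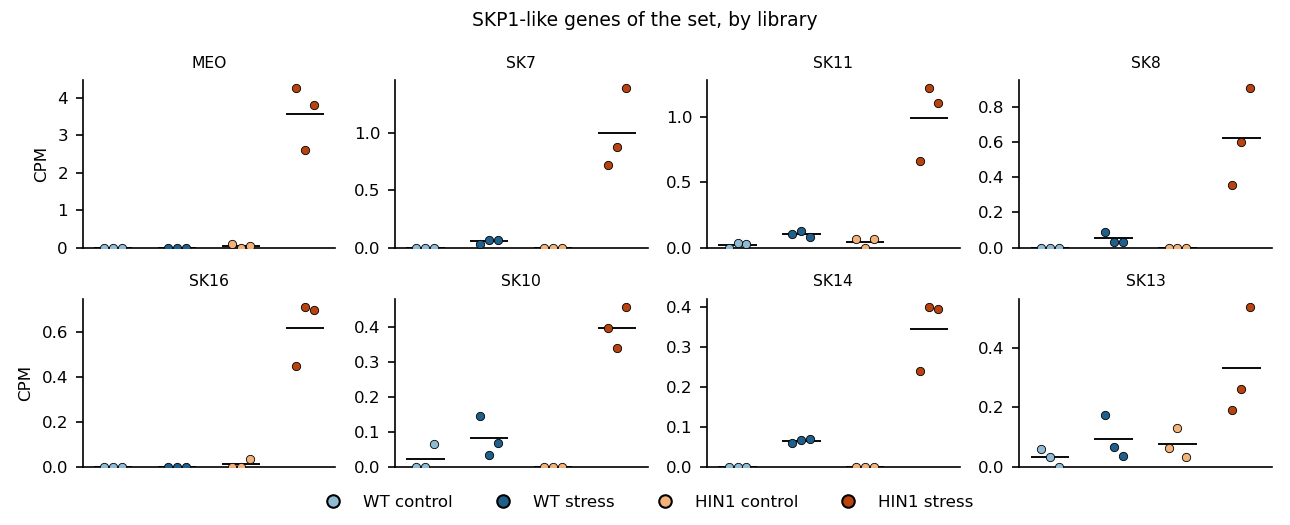
CPM per library (points) with the group mean (line) of the 8 SKP1-like members, each panel on its own linear axis from 0. All have their highest group mean in HIN1 stress, and low values in WT stress are seen for most of the family but not for MEO and SK16.

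The SKP1-like genes well expressed in WT did not go this way. Another 4 near-silent SKP1-like genes also had their highest group mean in HIN1 stress, but stayed under or near the floor of the rule. In HIN1 stress SK19 had a mean of 0.105 CPM, SK5 had 0.0897, SK3 had 0.0738 and SK6 had 0.0418. Among the 7 that were over 0.2 CPM in WT, AT5G42190 lay between 71.7 and 73.1 CPM and SK4 between 10.9 and 15.1 CPM as means of the 4 groups. SK12 had means of 0.0182 CPM in WT control, 0.21 CPM in WT stress, 0 CPM in HIN1 control and 0.279 CPM in HIN1 stress. F-box genes, whose proteins join SKP1, were in the set at 3.32% of 271 near-silent genes with a read, under the 5.38% of all classes. AT1G64295, an F-box associated protein, had 1.84, 2.04 and 2.04 CPM in HIN1 stress and 0.096, 0.131 and 0.148 CPM in HIN1 control, and the F-box gene AT3G60790 had 0.974, 1.51 and 1.25 CPM in HIN1 stress and 0.064 CPM at most elsewhere.

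Relatives of factors that help RNA polymerase along the gene were the other class of which most near-silent genes were members, again looked at after the values were seen. Of 8 near-silent genes annotated as TFIIS, Spt5 or Spt6, 5 are in the set (62.5%). AT2G33090, of the TFIIS family, had 0.319, 0.571 and 0.728 CPM in HIN1 stress and no read in HIN1 control. IWS2, a relative of IWS1, had 0.335, 0.432 and 0.648 CPM, AT2G34210 (Spt5) had 0.256, 0.309 and 0.617 CPM, AT1G63210 (Spt6) had 0.287, 0.37 and 0.301 CPM, and AT5G51360 (TFIIS) had 0.303, 0.479 and 0.206 CPM in HIN1 stress. All 5 were under 0.2 CPM in each of the other 9 libraries. Their summed level was 1.5, 2.16 and 2.5 CPM in HIN1 stress, 0.06, 0.23 and 0.08 CPM in HIN1 control and 0.26 to 0.5 CPM in WT stress.

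MADS-box genes, a family that includes regulators of flower organs and of endosperm, made up 8 members of 55 near-silent genes (14.5%). AT3G05860 had 0.958, 0.957 and 1.34 CPM and AT5G49420 had 0.735, 1.19 and 0.838 CPM in HIN1 stress, against 0.289 and 0.246 CPM at most in the other 9 libraries. PHE1, an imprinted gene of the endosperm, had 0.208, 0.216 and 0.301 CPM in HIN1 stress and 0.138 CPM at most in WT. Single members known from reproductive tissue were picked after their values were seen. DYT1, a regulator of the tapetum, the tissue that feeds pollen, had 0.128, 0.37 and 0.364 CPM in HIN1 stress and 0.033 CPM in 1 HIN1 control library, with no WT read. The seed storage protein gene CRU2 had 0.287, 0.247 and 0.237 CPM in HIN1 stress and 0.058 CPM at most elsewhere.

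Marker lists of reproductive tissues are given as sums over their genes, and their part in the members' levels was not tested. Within the HIN1 line the seed list was higher under stress without overlap and the other 4 lists overlapped. The tapetum and anther list stayed at 0.474 CPM or less in every library, and 0 of its genes had enough reads for the test. Its HIN1 sums lay above its WT sums in both treatments, but in control by only 0.246 against 0.245 CPM, too close to tell apart. The 15 seed markers summed to 1.82 to 3.59 CPM in WT control, 3.55 to 4.84 in WT stress, 1.5 to 2.97 in HIN1 control and 3.82 to 7.02 in HIN1 stress, with 6, 7, 6 and 10 of them at 0.1 CPM or more, and the storage albumin genes SESA1 and SESA3 were at 0 in every library. The 14 pollen markers summed to 5.42 to 9.3, 6.64 to 8.27, 7.38 to 8.29 and 6.96 to 7.8 CPM in the same order, with 4, 4, 4 and 6 of them at 0.1 CPM and PPME1 and ANX2 at 0. The 9 tapetum and anther markers summed to 0.115 to 0.245, 0.0517 to 0.0985, 0.246 to 0.386 and 0.224 to 0.474 CPM, with 0, 0, 2 and 1 at 0.1 CPM and SPL and ATA7 at 0 in every library. The 10 floral markers summed to 11.1 to 15.4, 7.79 to 12.6, 7.85 to 11.4 and 7.32 to 9.29 CPM, with 8, 9, 8 and 7 at 0.1 CPM. The 5 endosperm markers summed to 0.77 to 1.12, 1.36 to 1.95, 1.11 to 1.61 and 1.44 to 2.06 CPM, with 1, 1, 2 and 3 at 0.1 CPM. Of these lists edgeR called 0 genes between the genotypes under stress, where 0 were called by DESeq2 and 7 of 25 tested had an unadjusted p under 0.05. Among the 7, CRU2, ANX1 and PHE1 were higher in HIN1, but the rule chose them on this contrast. FUS3 and MEA were also higher, and AG and HAP2 were lower. No unadjusted share over all genes is given beside this count, so nothing is read from it. In control edgeR called 1, MEA, with means of 0.0427 CPM in WT control and 0.451 CPM in HIN1 control. CRU2, ANX1 and PHE1 are in the set and in the seed, pollen and endosperm lists.

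Pseudogenes, disabled copies that in Arabidopsis often derive from transposons, supplied 50 members. That is 4.42% of 1130 near-silent pseudogenes with a read, below the 5.38% of all classes. Their summed level was 2.43 to 3.15 CPM in HIN1 control and 40.92, 47.04 and 54.6 CPM in HIN1 stress, with 0.39 to 0.56 CPM in WT control and 1.33 to 2.28 CPM in WT stress. Of the 50, 36 had an HIN1 control mean under 0.1 of the HIN1 stress mean, 19 had no HIN1 control read and 7 reached 0.1 CPM there. AT1G19030, AT1G35050, AT1G35735 and AT1G53630 were called higher in HIN1 control than in WT control. AT1G35735 had 0.568, 0.722 and 0.652 CPM in HIN1 control and no read in WT control, at least 40.8-fold higher on the 3-read floor, and 0.646, 2.35 and 1.09 CPM in HIN1 stress.

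Chromosome 5 held 19 of the member pseudogenes, chromosome 3 held 11, chromosome 1 held 10, chromosome 4 held 6 and chromosome 2 held 4. Among the 40 loci around them, pseudogenes made up at least 50% for 62% of the member pseudogenes, 56.1% of the other near-silent pseudogenes and 10.3% of all genes. They were longer than the other near-silent pseudogenes, with a median of 3.72 kb against 2.36 kb, and length adds reads to a gene at the same level per kb. Another copy in the genome, at 80% identity over 50% of the length, was found for 72% of them and for 69.9% of the others, with a median of 3 copies in both.

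Several member pseudogenes are copies of one another. AT3G42383 forms a family with AT5G33434, AT5G34864 and AT5G34865, at 87.5% to 96.0% identity. The 4 together had 0.0643, 0 and 0.0328 CPM in HIN1 control, 0.321, 0.197 and 0.397 CPM in WT stress and 13.8, 10.7 and 17.2 CPM in HIN1 stress. Of 1149 aligned positions without gaps 205 differ, so most of their reads have a single best site, and 0.576% of the reads of AT5G34864 and 1.92% of those of AT5G34865 mapped to several sites. The same 90 bases of each, from RefSeq (TAIR10.1), are shown with capitals set in the same way. They are the gap-free stretch with the most differences in the alignment, so they overstate how far the copies have drifted.
AT3G42383 (chr3:14507795-14507884, minus strand): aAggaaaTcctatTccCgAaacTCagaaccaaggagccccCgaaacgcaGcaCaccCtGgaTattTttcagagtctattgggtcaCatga
AT5G33434 (chr5:12750116-12750205, minus strand): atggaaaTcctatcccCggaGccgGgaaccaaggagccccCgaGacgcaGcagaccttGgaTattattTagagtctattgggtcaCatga
AT5G34864 (chr5:13158461-13158550, plus strand): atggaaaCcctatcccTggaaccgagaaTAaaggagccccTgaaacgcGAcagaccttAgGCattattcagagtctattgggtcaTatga
AT5G34865 (chr5:13164228-13164317, plus strand): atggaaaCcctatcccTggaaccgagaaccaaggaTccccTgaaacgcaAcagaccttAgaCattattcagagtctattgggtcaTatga

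In this window 24 of 90 positions differ. AT5G33434 had 1.57, 1.24 and 1.77 CPM, AT5G34864 had 1.44, 1.05 and 1.98 CPM and AT5G34865 had 0.447, 0.592 and 0.775 CPM in HIN1 stress, and none of these 3 had a read in HIN1 control.

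Another family, AT3G29510, AT5G01185, AT5G25615, AT5G32482 and AT5G32484, is 98.1% to 99.5% identical in the pairs that aligned. It had no read in any HIN1 control library and 2.03, 4.31 and 2.89 CPM in HIN1 stress. Here 8.13% to 34.9% of the reads mapped to several sites, so the sum is firmer than the level of any copy. AT5G32484, at 0.19, 0.856 and 0.322 CPM, is 1 of 2 members for which a single library held over 60% of the HIN1 stress reads, and library 2 was highest for the summed family too. The other is AT2G37800, with 0.128, 0.154 and 0.68 CPM in HIN1 stress and a higher HIN1 control level of 0.466, 0.804 and 0.788 CPM.

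A family of 6, AT1G35050, AT1G35735, AT3G29220, AT3G30844, AT5G30584 and AT5G31122, was joined through pairs at 84.5% to 97.0% identity, and not every pair aligned. It differed in that its sum in HIN1 control was 0.938, 0.952 and 1.17 CPM. The largest part of that came from 1 copy, AT1G35735, with a mean of 0.647 CPM. The family summed to 3.04, 6.34 and 4.16 CPM in HIN1 stress and 0.41 to 0.483 CPM in WT stress. In AT1G58140, AT3G32415, AT3G61330 and AT5G13205, at 97.3% to 99.7% identity, up to 86.5% of the reads mapped to several sites, and only their sum of 1.08, 1.65 and 1.96 CPM in HIN1 stress is given. Over the whole set, 15 members had over 10% of reads at several sites. Among members without an HIN1 control read, AT5G33442 had 1.07, 1.02 and 1.33 CPM, AT4G06548 had 1.61, 0.864 and 1.41 CPM and AT2G06470 had 1.01, 0.94 and 1.14 CPM in HIN1 stress. AT5G33431, at chr5:12742864-12744019, lies in a row with AT5G33434 and AT5G33442, and had 2.59, 2.35 and 4.37 CPM in HIN1 stress and 0.064 CPM at most elsewhere.

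AT4G08990, of the cytosine methyltransferase family that maintains DNA methylation, had 1.13, 1.58 and 1.81 CPM in HIN1 stress and 0.164 CPM at most elsewhere. AT4G16810, with the VEFS box of Polycomb proteins, had 1.18, 1.25 and 1.58 CPM in HIN1 stress and 0.034 CPM at most elsewhere. The known silencing genes listed for the test were not called between the genotypes by edgeR. Of 25 genes for DNA methylation and transposon silencing 24 were tested, and edgeR called 0 between the genotypes under stress, where DESeq2 also called 0 and 0 had an unadjusted p under 0.05. In control edgeR also called 0, where DESeq2 called 3, of them 2 higher and 1 lower, and 4 had an unadjusted p under 0.05. Of 19 Polycomb and counteracting genes, edgeR called 0 under stress (0 unadjusted, 0 by DESeq2) and 0 in control (3 unadjusted, 0 by DESeq2). No unadjusted share over all genes is given beside the unadjusted counts of these lists, so nothing is read from them. The Polycomb gene MEA was counted in the endosperm list instead. It was called higher in HIN1 control, with means of 0.0427 CPM in WT control and 0.451 CPM in HIN1 control. The silencing genes summed to 776 to 832 CPM in WT stress and 799 to 823 CPM in HIN1 stress, and the Polycomb genes to 623 to 650 and 622 to 635 CPM.

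The other classes differed in how much of their level was present without stress. The 7 cytochrome P450 members summed to 2.35, 2.03 and 2.31 CPM in HIN1 control and 7.68, 7.59 and 9.7 CPM in HIN1 stress. Among them CYP81D2 had 0.751, 0.741 and 1.2 CPM in HIN1 stress and no read in the other 9 libraries. The 11 transporter members summed to 3.59, 3.18 and 3.63 CPM in HIN1 control and 6.08, 6.28 and 7.16 CPM in HIN1 stress. The 16 transcription factors outside the MADS-box family summed to 4.08, 2.46 and 3.58 CPM in HIN1 control and 7.6, 6.42 and 7.43 CPM in HIN1 stress. The 19 members of defensin-like and other small secreted peptides summed to 3.07, 2.58 and 2.79 CPM in HIN1 control and 6.6, 6.41 and 5.41 CPM in HIN1 stress. In none of these 4 classes did the HIN1 groups overlap, and each had a larger part of its level in HIN1 control than the pseudogenes or the SKP1-like genes did.

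**Figure D5:**
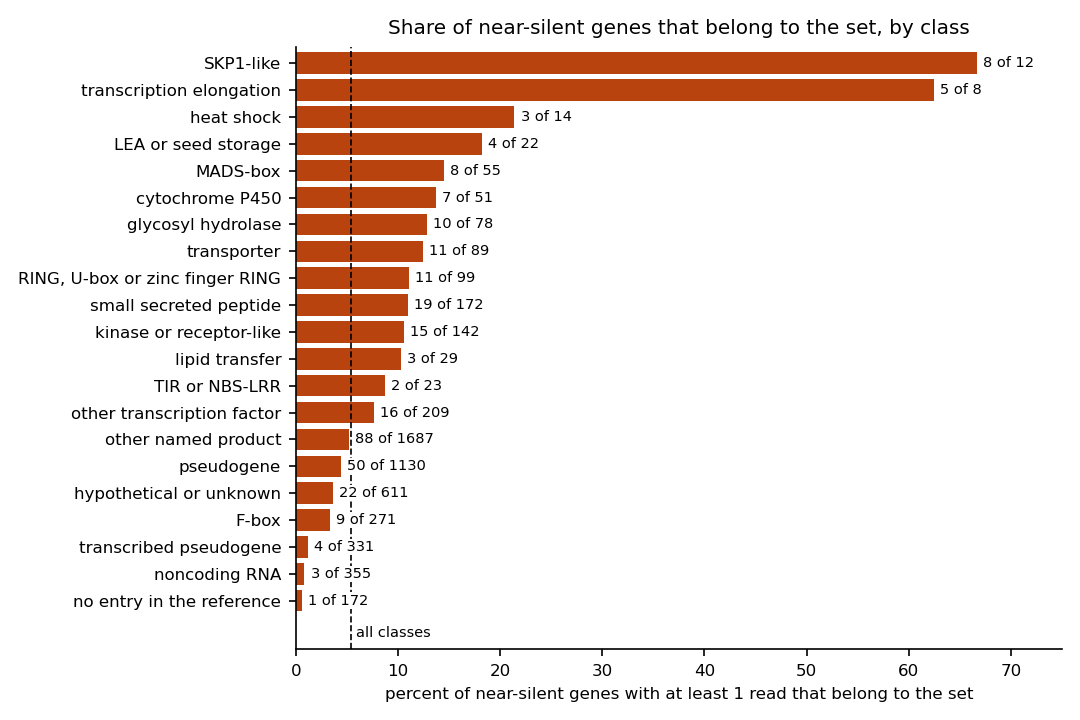
Bars give the share of the near-silent genes with a read that are members, in percent, for each class of gene, with the counts beside them and a dashed line for all classes. SKP1-like genes at 66.7% and transcription elongation relatives at 62.5% stand far to the right of the 5.38% of all classes, and pseudogenes, at 4.42%, lie close to it.

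Members lay close to one another in places. In all, 58 members had another member within 20 kb, in 26 runs. No such share was taken over other genes, so whether members lie closer together than other near-silent genes was not tested. The largest run, at chr4:10733864-10762104, held 4 genes annotated as glycosyl hydrolases, a group that includes chitinases. AT4G19760 had 0.901, 0.131 and 0.394 CPM in HIN1 control and 0.687, 0.942 and 1.57 CPM in HIN1 stress, AT4G19730 had 0.273, 0.066 and 0.131 CPM and 0.543, 0.741 and 0.807 CPM, and AT4G19750 had 0.289, 0 and 0.213 CPM and 0.224, 0.185 and 0.38 CPM. None of these 3 had a WT read. AT4G19800, in the same run, had 0.447, 0.957 and 0.696 CPM in HIN1 stress and no HIN1 control read. Neighbours thus did not share one pattern over the groups. Runs of 3 were also found for genes with a carbohydrate-binding X8 domain at chr1:24938500-24946968, with 1.12, 1.37 and 1.06 CPM in sum in HIN1 stress, and for self-incompatibility S1 relatives at chr3:20653670-20664576, with 0.591, 0.556 and 0.838 CPM.

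Overlap with other loci was no more frequent in members than in other near-silent genes, at 13.7% against 14.4%. A gene on the same strand ended within 1 kb before 82 members. That upstream gene was at 1 CPM or more in HIN1 stress in 47 cases, and in 5 of these at 2 times its WT stress mean or more. No share over other genes was taken beside these counts. Reads that run past the end of an upstream gene were not tested beyond these counts, and whether counting used the strand is not known from the labels or headers.

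The 250 bases before the start of 2 members are shown because the levels of these genes differ: MEO was high only in HIN1 stress, and AT1G29100 was as high in HIN1 control. The sequences are from RefSeq (TAIR10.1), 5′ to 3′ on the strand of the gene, and capitals mark matches to TTGAC, the core of the box that WRKY factors bind, and to TATAAA, the TATA box, on either strand.
MEO (chr2:8700187-8700436, minus strand): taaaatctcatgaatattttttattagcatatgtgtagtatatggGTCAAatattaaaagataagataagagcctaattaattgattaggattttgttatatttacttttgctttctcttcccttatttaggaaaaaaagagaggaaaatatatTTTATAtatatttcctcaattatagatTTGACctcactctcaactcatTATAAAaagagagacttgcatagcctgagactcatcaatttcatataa
AT1G29100 (chr1:10168467-10168716, plus strand): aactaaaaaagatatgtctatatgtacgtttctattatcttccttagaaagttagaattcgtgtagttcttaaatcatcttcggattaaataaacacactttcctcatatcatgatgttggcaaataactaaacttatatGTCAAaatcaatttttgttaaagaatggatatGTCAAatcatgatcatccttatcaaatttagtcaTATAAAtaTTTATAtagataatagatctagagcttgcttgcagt

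Both windows held TTGAC at 2 places and TATAAA at 2 places, with a TATAAA on the strand of the gene 48 bases before the start of MEO and 44 bases before that of AT1G29100. Neither held ACGTG, the core of the element bound by factors of the ABA pathway, nor CCGAC, the dehydration response element. The windows of AT4G28420 and PCR1 were also read and are not shown. AT4G28420 had TTGAC at 154, 116 and 44 bases before its start, and PCR1 had no TTGAC, so the count was not shared by these members. Over the 241 protein-coding members with a window of this length, TTGAC was found in 55.2%, against 44.4% of 3331 other near-silent genes and 44.9% of all 26712 protein-coding genes. TATAAA was found in 61.4%, 50.8% and 47.7%. The shares for ACGTG were 26.1%, 19.7% and 23.1%, those for CACGTG, which holds ACGTG, were 4.56%, 4.17% and 6.58%, those for CCGAC were 12.9%, 8.95% and 11.9%, and those for GAANNTTC, a heat shock element core, were 12.9%, 10% and 9.47%. A match is a run of letters and not a binding site.

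The difference between the stress responses of the genotypes, tested as the interaction in the same fit, called 1 member, CYP96A11, against a background of 0.157% of the genes tested (0.153% higher). At an unadjusted p under 0.05 there were 46, but no unadjusted share over all genes is given beside this count, so nothing is read from it. DESeq2 called 16 members, against a background of 0.934%. The median interaction of the members was 1.61 on the log2 scale, against 0.0181 over all genes, and the rule used 3 of its 4 groups. No member was called without library 1 of WT control, library 1 of WT stress, library 2 or 3 of HIN1 control or library 3 of HIN1 stress. Without library 3 of WT control 6 were called, where the background also rose, to 1.03% of the genes tested.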

How the data were processed

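The 12 deposited tables give reads per gene, RPKM and the fraction of a gene's reads at several sites, per the file headers, and the reads are estimated counts, fractional where reads map to several sites. The submitters' processing notes name TAIR10 as the build and list Bowtie2, Trimmomatic 0.35, bcl2fastq 1.8.4, CASAVA and DESeq2. The counter and its strand setting are named in no label or header. The deposited comparison tables hold a log2 fold change, its error, a Wald score, a mean normalized signal and p-values made by the authors, per the file headers.

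CPM here is the reads of a gene over all gene reads of the library. For tests, whole-number roundings of the counts were analysed with edgeR 4.0.16 in R 4.3.3, with filterByExpr at a minimum count of 10, TMM scaling, 1 quasi-likelihood fit over 12 libraries and Benjamini-Hochberg adjustment over 22924 genes. A call is an adjusted p under 0.05. The error of a log2 fold change is its size over the square root of the F statistic. DESeq2 1.42.0 and other settings are compared in the closing section. Names, places and sequences came from RefSeq TAIR10.1 by gene ID, which placed 298 members, and likeness from blastn 2.17.0 and mafft 7.526.

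Members named with values are the 10 highest in HIN1 stress, the 6 highest in HIN1 control, the 6 of lowest ratio of HIN1 control to HIN1 stress at 0.5 CPM or more, members within 20 kb of another, members at 50% identity or more to another, those with over 60% of reads in 1 library, and those at the thresholds. Identity was measured on nucleotides in place of proteins. Other members were named by their class or call, and some classes of annotated product were set, after their values were seen. The members and lists were chosen with earlier results of these data known.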

Additional observations from a re-analysis of the deposited data

Results flagged for a closer look

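CYP96A11 (AT4G39500), of a cytochrome P450 family that acts on the alkanes of cuticular wax, was called for a difference between the stress responses of the genotypes, with an interaction of 3.51 ± 0.493 on the log2 scale (SE, adjusted p = 0.0177 by edgeR's quasi-likelihood test). It had 0.12, 0.098 and 0.098 CPM in WT control, 0.117, 0.197 and 0.138 CPM in WT stress, 0.145, 0.082 and 0.066 CPM in HIN1 control and 1.6, 1.39 and 1.6 CPM in HIN1 stress. The HIN1 stress libraries stood apart from the other 9, which overlapped. Its stress response was 3.94 ± 0.311 in HIN1 and 0.42 ± 0.362 in WT. The call does not hold under several settings: no member was called for the interaction without library 1 of WT control, library 1 of WT stress, library 2 or 3 of HIN1 control or library 3 of HIN1 stress. It was named after its values were seen, and the rule that chose the members used 3 of these 4 groups.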

How the results depend on the processing

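The set of 299 genes held 298 with TMM scaling, 226 and 373 at WT ceilings of 0.1 and 0.4 CPM, 447 and 187 at floors of 0.05 and 0.2 CPM, 368 and 237 at folds of 2 and 5, and 292 to 365 without 1 library. Members without overlap between HIN1 control and WT control numbered 113 to 139 without 1 library. That count cannot fall when a library is left out, so its range is no check of stability. Members at 0.1 CPM in HIN1 control numbered 111 to 124 without 1 library. Without 1 library, calls ranged from 111 to 173 for HIN1 stress against WT stress, 139 to 184 for HIN1 stress against HIN1 control, 28 to 53 for HIN1 control against WT control, 17 to 30 for WT stress against WT control and 0 to 6 for the interaction. In that order, the background ranged over 2.32% to 3.68%, 19.9% to 29.5%, 1.5% to 9.89%, 22.2% to 32.6% and 0.0519% to 1.03%. Each background was highest without library 3 of WT control. DESeq2 called 71, 44 and 16 members in the last 3 comparisons. With only the groups compared in the fit, calls fell to 24 and 0 for HIN1 control against WT control and WT stress against WT control, where 69 and 8 members passed the filter. Without a filter the interaction had 3 calls.

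The labels do not say that a number marks 1 shared experiment. Deviations of same-numbered libraries correlated over 0.1 in 5 of 18 pairs, among them the 3 pairs between library 3 of WT stress, HIN1 control and HIN1 stress (0.122, 0.195 and 0.127). The chloroplast share was lowest in library 2 and highest in library 3 of every group. Pairs of different numbers were not correlated for comparison, so whether libraries of 1 number share an experiment is not settled. The main fit left the libraries unpaired, and a replicate block was run as the other choice. With the replicate block the calls were 129, 147, 37 and 25 in the 4 comparisons, in the order above, against 3.16%, 27.6%, 2.36% and 32% of all genes tested, and 0 for the interaction, where the call of CYP96A11 is lost.

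Of 3122 fold changes of 92 named members under other settings, 2910 kept direction and side of the threshold, 179 lost the call, 32 gained it and 1 reversed: AT3G27950, HIN1 stress against HIN1 control, was -0.16 without HIN1 control replicate 2 and ranged from -0.16 to 0.55 without 1 library. The cause was not tested. At 0.1 CPM a library holds about 6 reads, which limits all low members.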
